A study of Mus musculus with 6 samples.

Results

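Genes of costimulation and dendritic cell (DC) maturation were followed through a culture of mouse bone marrow, whose final cells the submitters' titles name as DCs. The set held Cd80, Cd86, Cd274, Cd40, Icam1, Cd83, Fscn1, Ccr7 and Ccl22, chosen by gene symbol, and all 9 were found among the 21761 genes of the deposited RNA-seq table. The 6 libraries formed 3 groups of 2. Day 0 was fresh bone marrow (replicates II and III), day 4 was cells titled CMP by the submitters (replicates I and II), and day 7 was cells titled BMDC, for bone marrow-derived DC (replicates III and IV). All came from bone marrow of male C57BL/6J mice, with no engineered allele named, and no age is given in the sources used here. Cultures were grown in medium with a supernatant holding Flt3 ligand, the cytokine that drives DC development, secreted by a transfected SP2/0 line. At days 4 and 7 every live cell was taken, with no sort named, so a library averages over whatever cells the dish held. In such bulk RNA, fewer cells of a type and less RNA per cell cannot be told apart. Whether replicates came from separate mice or cultures is not stated, so a p-value here reflects only how much these samples differ among themselves, and that may be technical.

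A resting DC takes up antigen and shows little costimulation. After a danger signal, or in small numbers without one, DCs mature: NF-kB and interferon signalling turn on the B7 ligands Cd80 and Cd86, which give T cells their costimulatory signal through Cd28, while Cd274 (PD-L1) engages the inhibitory receptor Pdcd1 (PD-1). Cd40 receives help from T cells, Icam1 holds the contact with them, Cd83 marks mature DCs, and Fscn1 bundles actin in dendrites. Ccr7 guides the cells to lymph nodes, and Ccl22 draws T cells that carry Ccr4. Several of these genes are not private to DCs, since macrophages, B cells and other cells also use Icam1, Cd274, Cd83, Cd86 and Cd40.

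The members did not move together. At day 7 Cd274 stood at 45.5 ± 3.04 RPKM (SD, n = 2; reads scaled by gene length and library total), against 3.41 ± 4.82 RPKM at day 0, and Icam1 stood at 20.07 ± 1.41 RPKM, against 3.04 ± 0.430 RPKM at day 0. Both rose at day 7 against day 0, and Icam1 also rose between days 4 and 7. Cd83 was highest at day 7 in level but did not pass the test. Cd80, Cd86, Cd40, Fscn1, Ccr7 and Ccl22 averaged between 0.965 and 5.20 RPKM at day 7, and none of them passed the test in any comparison.

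Depth differed widely and bounds what can be read from low genes. Totals ran from 157797 to 322837 reads at day 0, from 1365635 to 3852628 at day 4 and from 10951745 to 16149088 at day 7. For a gene of 1 kb, the floor of 3 reads equals 9.29 and 19.01 RPKM in the day 0 libraries, 2.20 and 0.779 RPKM in those of day 4, and 0.186 and 0.274 RPKM in those of day 7. As a guide to background, the 1449 receptor genes of smell (odorant, trace amine and vomeronasal), which blood cells are not known to use, had medians of 3.11 and 2.47 RPKM in the day 0 libraries, of 2.28 and 0.279 RPKM in day 4 replicates I and II, and of 0 in both day 7 libraries. Their 90th percentile stood at 6.67 and 13.3 RPKM in day 0 replicates II and III, 6.26 and 1.37 RPKM in those of day 4, and 0 in both of day 7. Against that level, 2 members exceeded the 90th percentile in day 0 replicate II and 0 in day 0 replicate III, and 3 and 4 in day 4 replicates I and II. At day 7 that percentile is 0, so that any read passes it, and 9 members in replicate III and 8 in replicate IV had more than 3 reads. The part of this low-level signal in the results below was not tested, apart from the subtraction of its median given in the closing section.

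The labelled cell type was checked against its markers. At day 7 Itgax (CD11c) averaged 25.3 ± 0.846 RPKM and H2-Ab1, a class II chain, 698 ± 45.3 RPKM, while Zbtb46, a transcription factor of conventional DCs, was at 0.0285 ± 0.000345 RPKM (5 reads in all). Flt3, the receptor of the culture's cytokine, averaged 1.60 ± 0.533 RPKM, and Xcr1 and Clec9a, markers of type 1 conventional DCs, had 0.528 and 0.703 RPKM in day 7 replicate III (38 and 14 reads) and 0 in replicate IV. Irf8 and Batf3, transcription factors that DCs use, had 38.8 and 3.75 RPKM in replicate III and 35.6 and 6.28 RPKM in replicate IV. All 13 macrophage markers had reads in both day 7 libraries, and the list summed to 150.5 and 140.4 RPKM in the day 0 libraries, 253 and 165 RPKM in those of day 4, and 12215 and 12996 RPKM in those of day 7. So the libraries titled BMDC held high levels of macrophage genes beside class II and Itgax, and Zbtb46, of conventional DCs, was near 0. The 9 plasmacytoid DC markers summed to 649 and 757 RPKM in day 7 replicates III and IV. Of these sums Bst2 alone had 613 and 714 RPKM, and the middle gene of the list lay at 4.27 and 2.25 RPKM. Cox6a2, whose exons overlap Itgad on the other strand, had 13.6 and 21.5 RPKM, and Siglech had 5.44 and 8.22 RPKM. Spib had 1.47 and 1.18 RPKM, and Klk1 had 0 reads in both. In day 0 the 2 libraries themselves stood apart, with neutrophil markers summing to 63566 RPKM in replicate II and 7696 RPKM in replicate III.

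The stretch around the start of the gene is shown for the 2 members that rose, because the letters bound by the factors of DC maturation can be looked for there. RefSeq windows on GRCm38.p6, from 250 bases before the start to 50 after it, were held for 5 of the 9 members (Cd274, Cd80, Icam1, Fscn1 and Ccl22). The Icam1 window is chr9:21015690-21015989, plus strand, and the Cd274 window is chr19:29367188-29367487, plus strand. Capitals mark the match to a searched motif.
Icam1: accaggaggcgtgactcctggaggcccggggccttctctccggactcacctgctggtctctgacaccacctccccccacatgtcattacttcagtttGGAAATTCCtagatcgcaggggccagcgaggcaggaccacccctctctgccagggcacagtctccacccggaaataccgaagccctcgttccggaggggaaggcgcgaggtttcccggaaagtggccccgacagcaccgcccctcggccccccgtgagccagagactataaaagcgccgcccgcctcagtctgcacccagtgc
Cd274: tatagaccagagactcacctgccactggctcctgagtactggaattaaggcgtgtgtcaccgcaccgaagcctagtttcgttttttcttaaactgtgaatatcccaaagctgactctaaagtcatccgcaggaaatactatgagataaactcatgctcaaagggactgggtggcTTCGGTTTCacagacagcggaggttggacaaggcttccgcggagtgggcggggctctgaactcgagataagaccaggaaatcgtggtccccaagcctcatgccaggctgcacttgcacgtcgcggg

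In the Icam1 window the capitals are GGAAATTCC, starting 153 bases before the gene's start, a match to GGAANTTCC, letters found in many NF-kB sites. Of all 32851 windows 0.928% hold a match to it on either strand, and of the 5 member windows only that of Icam1 does. In the Cd274 window the capitals are TTCGGTTTC, 76 bases before the start, which is GAAANNGAA read on the other strand, letters of the interferon-stimulated response element. That motif is common, in 8.56% of all windows, and among the 5 members only Cd274 holds it. Another motif, GGGNNTTTC, also written for NF-kB, occurs in 4.36% of all windows and in 0 of these 5. GGAANTTCC and GAAANNGAA were searched after GGGNNTTTC had given no match, on both strands, and none of the 3 can take the same 9 letters as another. These matches describe letters only.

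**Figure D1:**
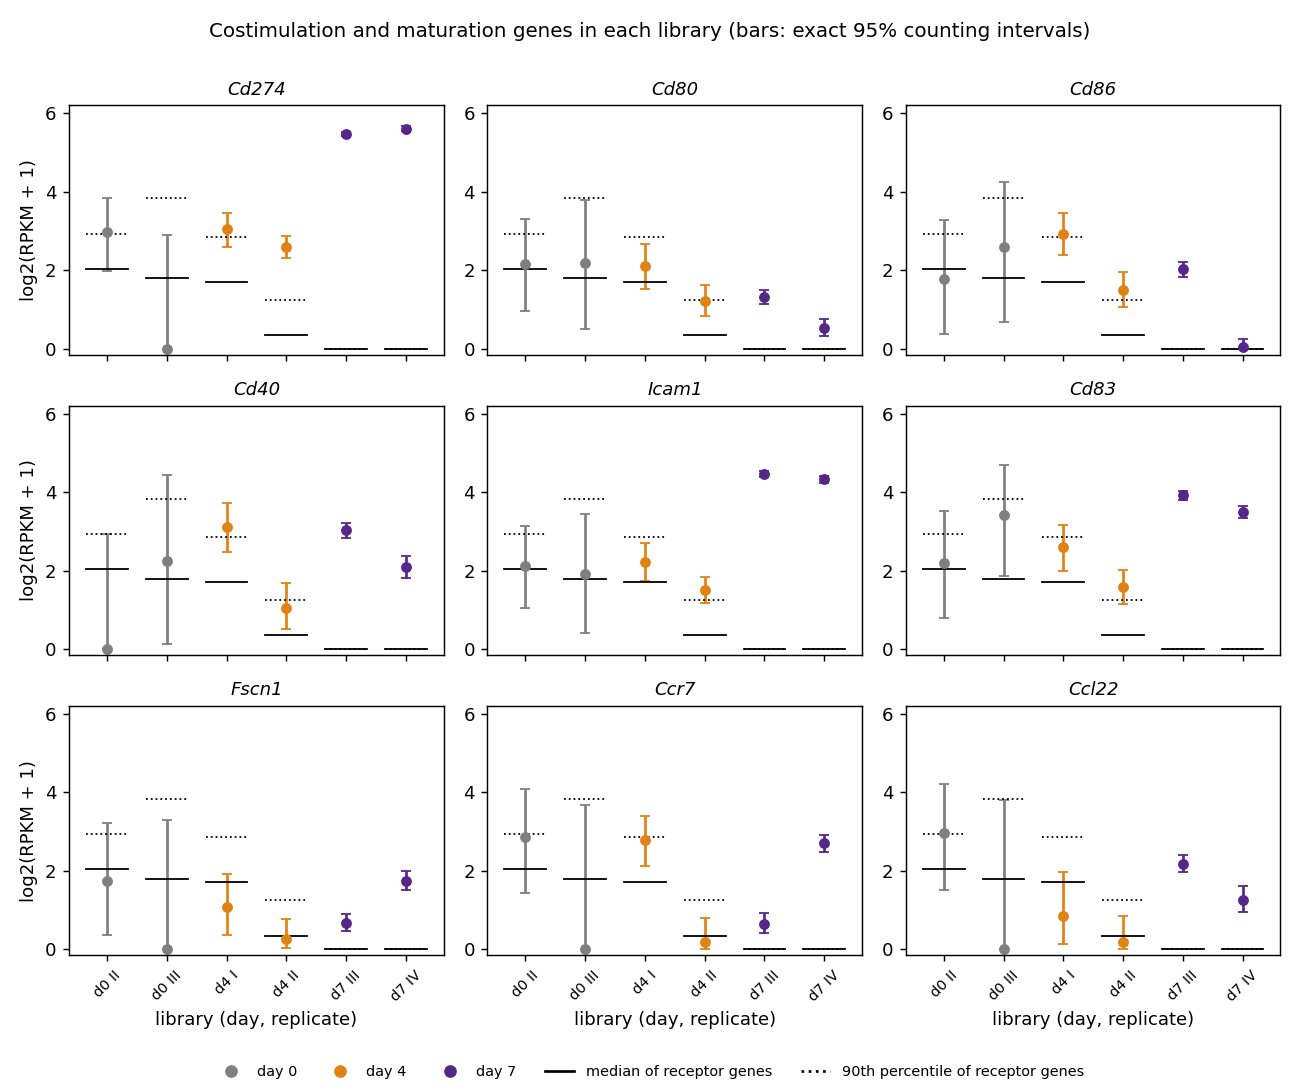
Each panel shows 1 member, with log2(RPKM + 1) on the vertical axis and the 6 libraries (day and replicate) from day 0 to day 7 on the horizontal axis; bars are exact 95% counting intervals, solid lines the median and dotted lines the 90th percentile of the receptor genes. Cd274 and Icam1 at day 7 lie above every earlier library, while Cd80, Cd86, Cd40 and Ccr7 at day 7 lie within the range of the earlier libraries or below it.

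Cd274 is the inhibitory B7 ligand of the set, and at day 7 it stood above Cd80 and Cd86. It had 6.81 and 0 RPKM at day 0 (8 and 0 reads), 7.25 and 5.07 RPKM at day 4 (36 and 71 reads), and 43.3 and 47.6 RPKM at day 7 (2546 and 1898 reads). Both day 7 libraries lay above all others, whereas the day 4 libraries overlapped those of day 0, where replicate III had no read, which at the floor of 3 reads allows up to 5.23 RPKM. On the log2(RPKM + 1) scale Cd274 rose at day 7 against day 0 by 4.05 ± 0.84 (SE, limma adjusted p = 0.0113), and the reads pooled over libraries and scaled by depth were 9.85 times as many (exact 95% interval 5.0 to 22.8). Against day 4 the difference at day 7 was 2.72 ± 0.84 (adjusted p = 0.0715), short of the threshold of 0.05, with a pooled ratio of 8.0 (6.60 to 9.78). The intervals cover counting error only, and the exons of Cd274 overlap an antisense gene, whose reads cannot be told apart where strand was not kept. The call against day 0 was lost in 5 of 17 alternative settings, where adjusted p reached 0.0874, and a call against day 4 appeared in 7 of them.

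Cd80 and Cd86, the activating B7 ligands, were low throughout. Cd80 had 3.48 and 3.56 RPKM at day 0 (4 and 2 reads), 3.29 and 1.31 RPKM at day 4 (16 and 18 reads), and 1.49 and 0.436 RPKM at day 7 (86 and 17 reads). The day 7 libraries lay below both of day 0 and overlapped with day 4, and the day 0 values sit beside the receptor genes' medians given above. The difference at day 7 against day 0 was -1.26 ± 0.62 (limma adjusted p = 0.133), with a pooled read ratio of 0.304 (0.135 to 0.849), and against day 4 it was -0.73 ± 0.62 (adjusted p = 0.403).

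Cd86 had 2.44 and 4.99 RPKM at day 0 (2 reads each), 6.63 and 1.84 RPKM at day 4 (23 and 18 reads), and 3.07 and 0.0360 RPKM at day 7 (126 reads and 1 read). Its 2 day 7 libraries thus disagreed: replicate III held Cd86 at 85.4 times the level of replicate IV, a ratio that rests on that 1 read (exact interval 15.1 to 3401), and the groups overlapped in every comparison. At day 7 against day 4 the difference was -1.18 ± 0.82 (limma adjusted p = 0.336), and against day 0 it was -1.14 ± 0.82 (adjusted p = 0.277).

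Cd40, the receptor for T cell help, had 0 and 3.71 RPKM at day 0 (0 reads and 1 read), 7.71 and 1.06 RPKM at day 4 (18 and 7 reads), and 7.13 and 3.26 RPKM at day 7 (197 and 61 reads). The groups overlapped in all 3 comparisons, with day 4 replicate I above both day 7 libraries. Its difference at day 7 against day 0 was 1.44 ± 0.94 (limma adjusted p = 0.241), and against day 4 it was 0.47 ± 0.94 (adjusted p = 0.699).

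Icam1, the adhesion ligand of the integrins Itgal and Itgam with Itgb2, was called in both comparisons of day 7. It had 3.35 and 2.74 RPKM at day 0 (5 and 2 reads), 3.64 and 1.85 RPKM at day 4 (23 and 33 reads), and 21.1 and 19.1 RPKM at day 7 (1573 and 966 reads). Day 7 lay clear of the rest, and the other 2 days overlapped. Icam1 rose at day 7 against day 4 by 2.53 ± 0.47 (limma adjusted p = 0.0114; pooled ratio 8.73, 6.70 to 11.6), and against day 0 by 2.38 ± 0.47 (adjusted p = 0.00951; pooled ratio 6.43, 3.12 to 16). The difference at day 4 against day 0 was -0.15 ± 0.47 (adjusted p = 0.877). The call against day 4 was lost in 5 of 17 settings, with adjusted p up to 0.140, and that against day 0 in 2, both with 1 day 7 library left out. An antisense gene overlaps the exons of Icam1 as well.

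Cd83, a surface protein of mature DCs and activated B cells that steadies surface Cd86 and class II, had 3.55 and 9.69 RPKM at day 0 (3 and 4 reads), 5.04 and 1.98 RPKM at day 4 (18 and 20 reads), and 14.1 and 10.4 RPKM at day 7 (598 and 297 reads). Both day 7 libraries were above those of each earlier day, though only just above day 0 replicate III. The difference at day 7 was 1.63 ± 0.58 against day 4 (limma adjusted p = 0.110; pooled ratio 4.54, 3.28 to 6.45) and 0.91 ± 0.58 against day 0 (adjusted p = 0.235; pooled ratio 2.27, 1.1 to 5.66). Cd83 passed the threshold against day 4 in 4 of 17 alternative settings.

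Fscn1, the actin-bundling protein of mature DCs, was the lowest member at day 0 in level. It had 2.32 and 0 RPKM at day 0 (2 and 0 reads), 1.1 and 0.195 RPKM at day 4 (4 and 2 reads), and 0.604 and 2.36 RPKM at day 7 (26 and 69 reads). No group lay apart, and the difference at day 7 was 0.55 ± 0.79 against day 4 (limma adjusted p = 0.593) and 0.35 ± 0.79 against day 0 (adjusted p = 0.724).

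Ccr7, the receptor that directs maturing DCs towards lymph nodes, had 6.27 and 0 RPKM at day 0 (4 and 0 reads), 5.93 and 0.131 RPKM at day 4 (16 reads and 1 read), and 0.564 and 5.50 RPKM at day 7 (18 and 119 reads). Days 4 and 7 each held 1 high and 1 low library, so that the means of 3.14, 3.03 and 3.03 RPKM at days 0, 4 and 7 hide the spread. At day 0 the 4 and 0 reads could not tell the libraries apart (replicate III over II, exact interval 0 to 3.10). At day 7 replicate III lay below the 5.50 RPKM of replicate IV by a ratio of 9.75 (exact interval 5.91 to 17.0), while at day 4 replicate I had 45.1 times the level of replicate II, where 1 read was seen (7.01 to 1893). The differences were 0.19 ± 1.21 at day 7 against day 4 (limma adjusted p = 0.909) and 0.24 ± 1.21 against day 0 (adjusted p = 0.881), with the largest error of any member.

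Ccl22, the chemokine for Ccr4, had 6.84 and 0 RPKM at day 0 (4 and 0 reads), 0.809 and 0.143 RPKM at day 4 (2 reads and 1 read), and 3.56 and 1.41 RPKM at day 7 (104 and 28 reads). Both day 7 libraries lay above both of day 4, on 132 reads against 3, a pooled ratio of 8.47 (exact interval 2.84 to 41.6). The fitted difference was 1.20 ± 0.97 (limma adjusted p = 0.386), and against day 0, where the libraries overlapped, it was 0.24 ± 0.97 (adjusted p = 0.848).

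**Figure D2:**
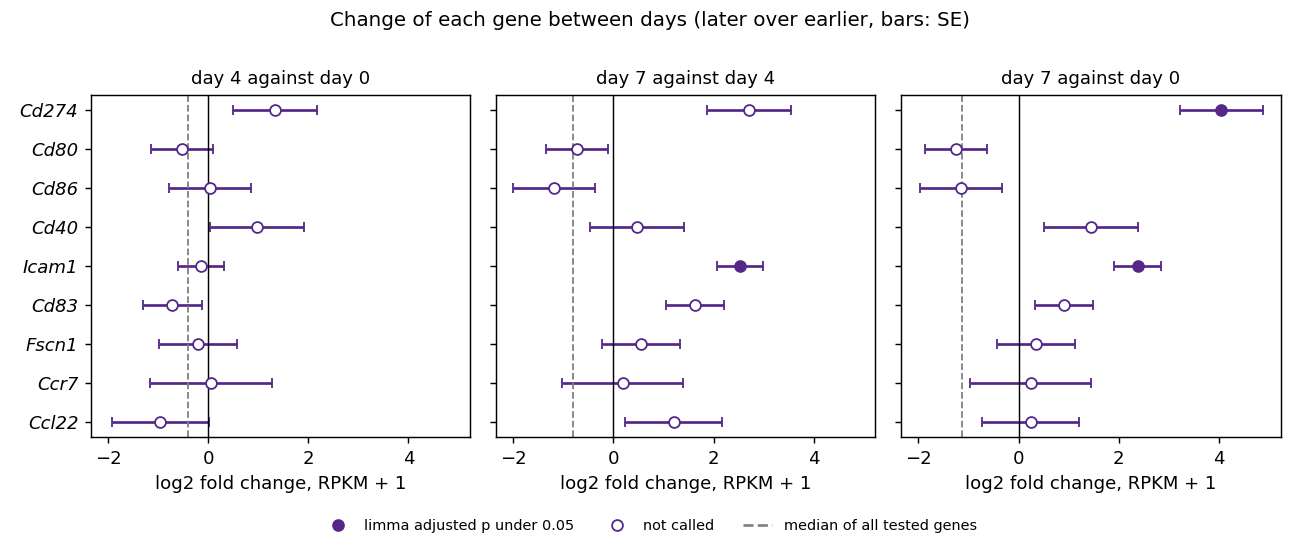
Each panel shows 1 comparison, with the log2 fold change of RPKM + 1 (later over earlier day) on the horizontal axis and the members down the page; bars are SE, filled points passed limma adjusted p under 0.05, and dashed lines are the median of all tested genes. Icam1 is filled in both comparisons of day 7 and Cd274 in that against day 0.

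Counted over the 9 members, all of which passed the filter on low values, 0 were called at day 4 against day 0 by limma, where 3.66% of the 19279 genes tested were called higher and 1.92% lower (5.58% in either direction), and 0 had an unadjusted p under 0.05; voom on the recovered reads also called 0. The differences there ran from -0.96 ± 0.97 (Ccl22) to 1.34 ± 0.84 (Cd274). At day 7 against day 4, 1 was higher (Icam1) and 0 lower, where 5.85% of all genes tested were called higher and 6.75% lower (12.6% in either direction). Unadjusted p was under 0.05 for 3 members there, Cd274, Icam1 and Cd83, each higher at day 7. Over all genes tested, limma gave unadjusted p under 0.05 for 29.2% there and for 25.4% at day 4 against day 0. At day 7 against day 0, 2 were higher (Cd274 and Icam1) and 0 lower, where 11.3% of all genes were called higher and 29.3% lower (40.6% in either direction). With day 4 replicate I or II left out, limma called 0 genes of the whole table in either comparison with day 4, where 1 library was left at day 4. Over all 17 alternatives the log2 difference of Icam1 at day 7 against day 4 stayed between 1.70 and 3.13, and its call held in 12. The median difference of the members was -0.15 at day 4 against day 0, beside -0.40 over all genes tested. At day 7 it was 0.55 against day 4 and 0.35 against day 0, beside -0.81 and -1.14 over all genes. The 0.35 is the value of Fscn1, which had 0 reads in day 0 replicate III. Its pooled read ratio against day 0 was 0.842 (0.227 to 7.06). Ccr7 and Ccl22, both fitted as 0.24, had pooled ratios of 0.607 (0.232 to 2.26) and 0.585 (0.223 to 2.18). Cd274, Icam1, Cd83 and Cd40 had pooled ratios above 1 there. The medians of all genes depend on the scaling: with quantile normalization they were -0.04 at day 4 against day 0, 0.04 at day 7 against day 4 and -0.01 at day 7 against day 0, and with the median of the receptor genes subtracted, chosen after seeing the data, they were 0.11, -0.15 and 0. Without overlap between libraries, 4 members were higher at day 7 than at day 4 (Cd274, Icam1, Cd83 and Ccl22) and 0 were lower, while 19.6% of all genes were higher and 57.6% lower in this way. Against day 0, 3 were higher (Cd274, Icam1 and Cd83) and 1 lower (Cd80), while 19.6% of all genes were higher and 50.8% lower.

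At day 7, where depth allowed an order of levels, Cd274 came first, then Icam1, Cd83 and Cd40, and the libraries of these neighbours did not overlap. From Cd40 downwards, through Ccr7, Ccl22, Cd86, Fscn1 and Cd80, each neighbour overlapped with the next. At day 0 every neighbour in the order overlapped, and at day 4 all did apart from Cd80 over Fscn1.

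**Figure D3:**
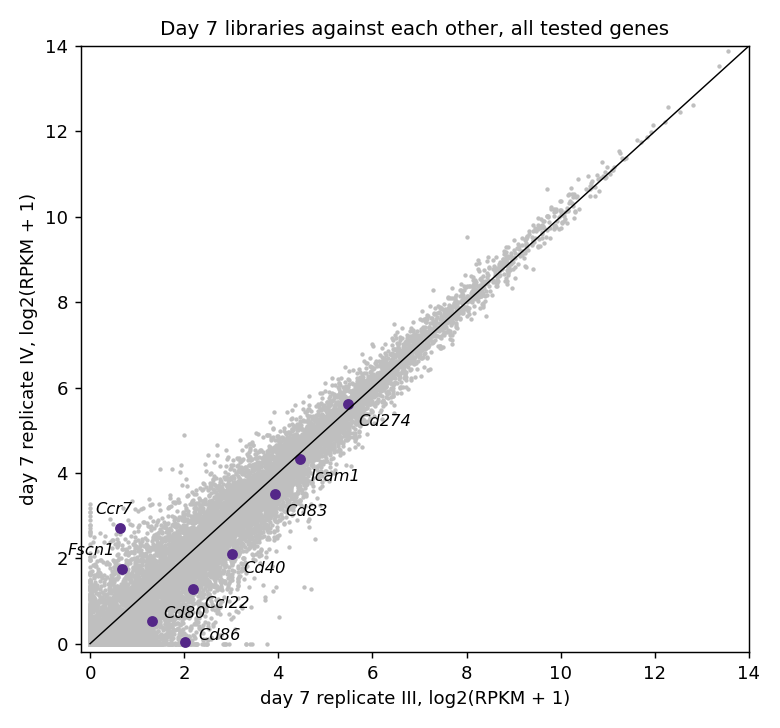
Each point is a tested gene, with log2(RPKM + 1) of day 7 replicate III on the horizontal axis and of replicate IV on the vertical axis; members are large and named, and the line marks equal levels. Cd274, Icam1 and Cd83 lie near the line, Cd86, Cd80, Ccl22 and Cd40 on the side of replicate III, and Ccr7 and Fscn1 on that of replicate IV.

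Differences between the day 7 libraries ran in both directions. Of the 9 members, 6 differed by more than 2-fold. The intervals given here cover the counting of amplified reads, not the spread between separate libraries. Cd86, Cd80 (3.43-fold, 2.02 to 6.16), Ccl22 (2.52-fold, 1.65 to 3.97) and Cd40 (2.19-fold, 1.64 to 2.97) were higher in replicate III. Ccr7 and Fscn1 (3.91-fold, 2.46 to 6.40) were higher in replicate IV. Cd274 and Icam1 each differed by 1.1-fold between the 2 libraries and Cd83 by 1.37-fold. For comparison, among all tested genes of 0.5 to 2 RPKM at day 7, 55.6% of 2109 differed by more than 2-fold, among those of 2 to 10 RPKM 23.2% of 3944, and among those of 10 to 100 RPKM 4.31% of 3732. The members within 2-fold are the 3 above 10 RPKM.

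Genes with the most similar course to the 3 highest members were named by the root mean square difference of their centred log2(RPKM + 1) values over the 6 libraries, among the 7717 genes that averaged 5 RPKM or more. For Cd274 these were Atp5l, an ATP synthase subunit, at 0.175, Mrps14, a protein of the mitochondrial ribosome, at 0.219, and Slirp, a mitochondrial RNA-binding protein, at 0.276. For Icam1 they were Ccdc23 at 0.171, Timm17a, part of the mitochondrial import machinery, at 0.175, and Evl, an actin regulator, at 0.179. For Cd83 they were Dpysl2 at 0.0781, Siae, a sialic acid esterase, at 0.151, and D15Ertd621e at 0.176. Dpysl2, a cytoskeletal adaptor, had 4.89 and 11.4 RPKM in the day 0 libraries, 6.28 and 2.99 RPKM in those of day 4, and 19.0 and 14.3 RPKM in those of day 7, close to the course of Cd83 in each library.

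Other ligands of T cell costimulation and inhibition also split. Counts of this and the later lists stand beside the shares of all genes called. These were 3.66% higher and 1.92% lower at day 4 against day 0. They were 5.85% and 6.75% at day 7 against day 4, and 11.3% and 29.3% at day 7 against day 0. Of 14 tested, 0 were called at day 4 against day 0, 2 rose and 2 fell at day 7 against day 4, and 3 rose and 4 fell at day 7 against day 0, with medians of -0.10, -0.03 and -0.53. Cd48, an adhesion ligand of the SLAM family, rose to 272 ± 99.0 RPKM at day 7, against 14.2 ± 2.66 RPKM at day 4 (4.13 ± 0.45, limma adjusted p = 0.00121). Cd200, which restrains myeloid cells through its receptor, rose to 36.2 ± 8.55 RPKM at day 7, against 2.82 ± 1.70 RPKM at day 4 (3.34 ± 0.49, adjusted p = 0.00455). Lgals9, a galectin, averaged 107 ± 1.84 RPKM at day 7, against 50.06 ± 32.4 RPKM at day 4 (1.24 ± 0.50, adjusted p = 0.142). Icam2, an adhesion ligand related to Icam1, averaged 17.7 ± 3.53 RPKM at day 7, against 11.7 ± 0.196 RPKM at day 4 (0.55 ± 0.44, adjusted p = 0.386). The 2 that fell at day 7 against day 4 were Icosl and Tnfsf14. Icosl fell to 0.630 ± 0.510 RPKM, against 20.4 ± 5.02 RPKM at day 4 (-3.73 ± 0.60, limma adjusted p = 0.0063). Tnfsf14 fell to 0.334 ± 0.472 RPKM, against 6.06 ± 2.04 RPKM at day 4 (-2.42 ± 0.60, adjusted p = 0.0349).

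Among 7 tested receptors and partners of the members, 2 rose at day 4 against day 0, 2 fell at day 7 against day 4, and 2 rose and 4 fell at day 7 against day 0, with medians of 1.04, -1.08 and -1.80. The integrin chains that bind Icam1 were among them. Itgb2, their shared beta chain, rose to 685 ± 13.5 RPKM at day 4, against 82.0 ± 20.8 RPKM at day 0 (3.07 ± 0.46, limma adjusted p = 0.0143), and Itgam, the alpha chain of Mac-1, whose exons overlap another gene model, rose by 2.04 ± 0.43 (adjusted p = 0.0363). At day 7 against day 4 Itgam fell by 3.22 ± 0.43 on the log2 scale (adjusted p = 0.00298) and Itgal, the alpha chain of LFA-1, fell by 3.11 ± 0.46 (adjusted p = 0.0046). Ccr4, the receptor of Ccl22, was at 0.0497 ± 0.0240 RPKM at day 7, against 5.05 ± 0.714 RPKM at day 0 (-2.52 ± 0.58, adjusted p = 0.0157), where its 5 and 2 reads lie at the level of the receptor genes. Ctla4 and Pdcd1, also among the 4 that fell against day 0, lie at that level too. In day 0 replicates II and III Ctla4 had 2 reads and 1 read, and Pdcd1 had 2 reads in each. Neutrophils are rich in Itgb2 and Itgam, and their markers summed to 84.4 and 94.4 RPKM at day 7, against 43979 and 32789 RPKM at day 4. Their part in these changes was not tested.

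**Figure D4:**
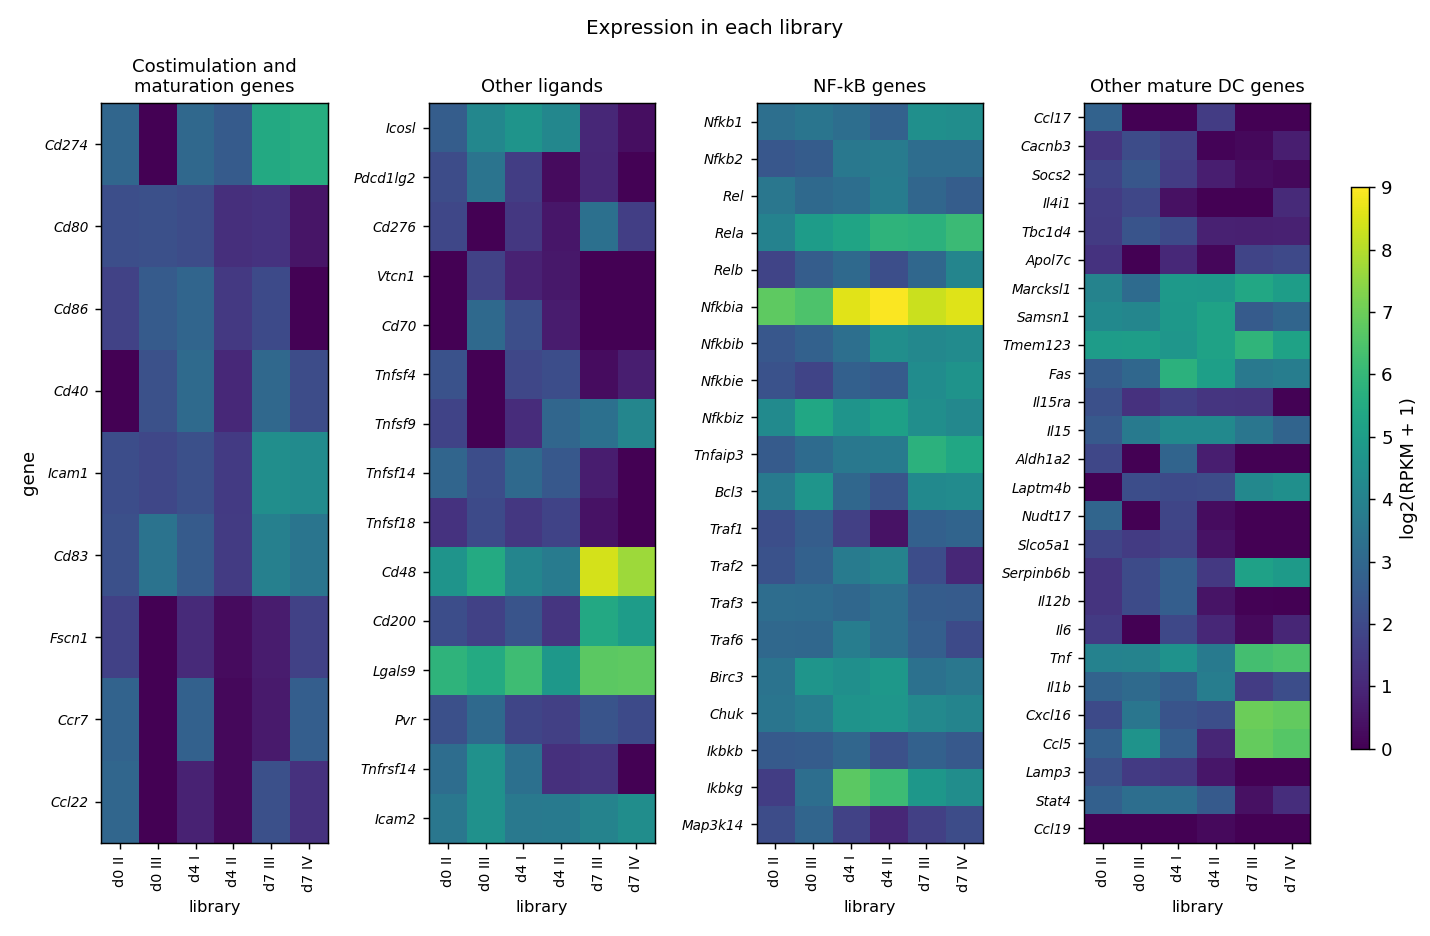
Colour gives log2(RPKM + 1) of each gene (down the page) in each of the 6 libraries (across), for the members and for 3 lists of related genes. Cd48, Cd200, Tnfaip3, Cxcl16 and Ccl5 are bright in both day 7 libraries beside Cd274 and Icam1. Nfkbia is bright in all 6 libraries, and brighter from day 4 on.

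NF-kB, the pathway that switches on several members, had most of its calls upwards. Of 20 subunits, inhibitors and feedback genes tested, 2 rose and 0 fell at day 4 against day 0. Of all genes, 3.66% rose and 1.92% fell there. At day 7 against day 4, 2 rose and 1 fell, beside 5.85% and 6.75% of all genes. At day 7 against day 0, 6 rose and 0 fell, beside 11.3% and 29.3% of all genes. The medians of the list were 0.56, -0.15 and 0.45 in this order. Over the 17 alternatives the number called at day 7 against day 4 ran from 0 to 9. Nfkbia, the inhibitor IkB-alpha and itself a target, rose to 436 ± 75.8 RPKM at day 4, against 98.1 ± 13.9 RPKM at day 0 (2.14 ± 0.45, limma adjusted p = 0.0357), and stood at 341 ± 44.5 RPKM at day 7. Tnfaip3 (A20), a feedback inhibitor, rose to 47.02 ± 9.85 RPKM at day 7, against 11.5 ± 0.465 RPKM at day 4 (1.92 ± 0.39, adjusted p = 0.0173), and Nfkbie, another inhibitor, rose against day 0 by 2.43 ± 0.42 (adjusted p = 0.00643). Rela, a subunit of NF-kB, rose against day 0 by 1.48 ± 0.45 (adjusted p = 0.0338). Ikbkg rose at day 4 against day 0 by 4.01 ± 0.55 (adjusted p = 0.0121), but its exons overlap those of G6pdx on the other strand, and the reads of the pair cannot be told apart here. Traf2, an adaptor of TNF receptors, fell by 2.31 ± 0.53 at day 7 against day 4 (adjusted p = 0.0271).

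Further genes of mature or migratory DCs went both ways. Of 25 tested, 1 rose and 0 fell at day 4 against day 0, 4 rose and 3 fell at day 7 against day 4, and 6 rose and 4 fell at day 7 against day 0, with medians of -0.11, -0.81 and -1.02. Cxcl16, a chemokine that macrophages make too and whose exons overlap Zmynd15 on the other strand, rose to 119.5 ± 7.94 RPKM at day 7, against 3.82 ± 0.422 RPKM at day 4 (4.65 ± 0.52, limma adjusted p = 0.00131). Ccl5, a chemokine for T cells and monocytes, rose to 107 ± 12.4 RPKM at day 7, against 3.25 ± 3.21 RPKM at day 4 (4.91 ± 0.72, adjusted p = 0.00439), and Tnf, the inflammatory cytokine, rose by 2.25 ± 0.41 (adjusted p = 0.0109). Serpinb6b, a protease inhibitor, rose at day 7 against day 0 by 3.33 ± 0.54 (adjusted p = 0.0051). Fas, the death receptor, rose at day 4 against day 0 by 2.62 ± 0.41 (adjusted p = 0.0165) and fell at day 7 against day 4 by 1.71 ± 0.41 (adjusted p = 0.0311). Ccl17, Lamp3, Aldh1a2, Nudt17, Slco5a1 and Ccl19 had 0 reads in both day 7 libraries, and these 6 were named after their values were seen.

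Receptors and adaptors of signals that can act on DC maturation were also followed. Of 17 tested, 3 rose and 0 fell at day 4 against day 0, 1 rose and 1 fell at day 7 against day 4, and 6 rose and 2 fell at day 7 against day 0, with medians of 0.97, -0.11 and 1.00. Tnfrsf1a, a receptor of Tnf, rose at day 4 against day 0 by 2.25 ± 0.38 (limma adjusted p = 0.0197), and Csf2ra, the alpha chain of the GM-CSF receptor, by 2.17 ± 0.40 (adjusted p = 0.0247). Csf2rb, the shared beta chain of that receptor, with a close copy in Csf2rb2 that could share reads, rose to 176 ± 0.590 RPKM at day 7, against 39.2 ± 6.51 RPKM at day 4 (2.15 ± 0.39, adjusted p = 0.0102). Il1r1, a receptor of interleukin 1, fell at day 7 against day 4 by 2.27 ± 0.57 (adjusted p = 0.0368). Ifnar2, a chain of the type I interferon receptor whose exons overlap another gene model, and Tgfbr2, a receptor of TGF-beta, rose at day 7 against day 0 by 2.62 ± 0.40 (adjusted p = 0.00374) and 2.68 ± 0.41 (adjusted p = 0.00406).

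**Figure D5:**
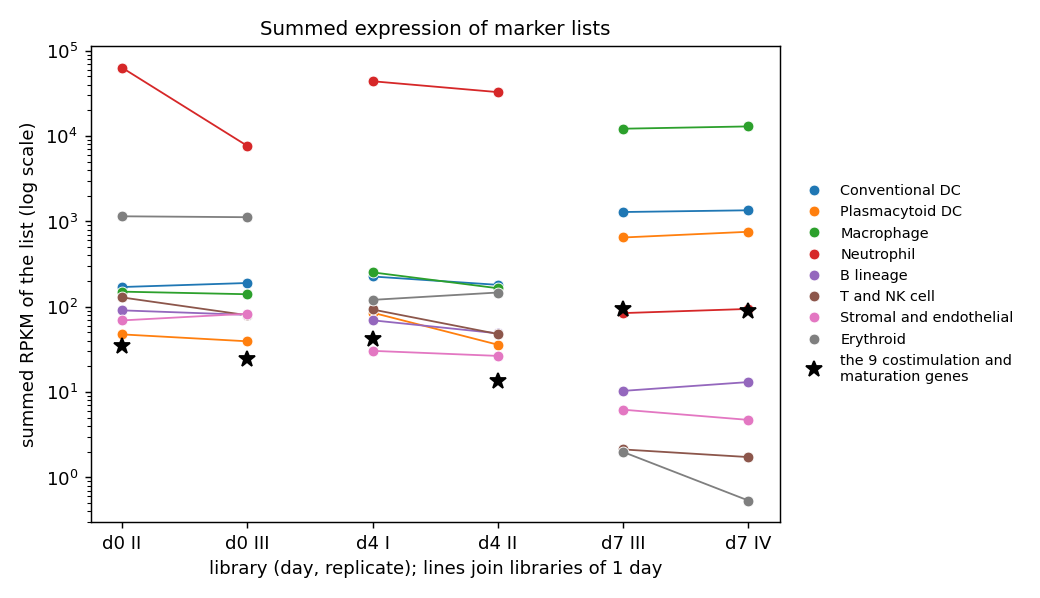
Each line joins the 2 libraries of a day, with the summed RPKM of a marker list on a log vertical axis and the libraries from day 0 to day 7 on the horizontal axis; stars are the sum of the 9 members. Macrophage markers reach 12215 and 12996 RPKM at day 7, where neutrophil markers are at 84.4 and 94.4 RPKM.

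Marker lists of other cell types also changed between days. Of 13 macrophage markers 11 rose and 1 fell at day 7 against day 4, and 9 rose and 1 fell against day 0, by limma. In both comparisons the marker that fell was Vcam1. Of 13 conventional DC markers 3 rose and 0 fell against day 4, and 5 rose and 5 fell against day 0, with a summed level of 170.5 and 190.04 RPKM in the day 0 libraries, 227 and 181 RPKM in those of day 4, and 1290 and 1352 RPKM in those of day 7. H2-Ab1, H2-Aa and Sirpa, which macrophages also use, had 666, 268 and 274 RPKM of the 1290 in day 7 replicate III, while the middle gene of the list lay at 5.33 and 8.68 RPKM in day 0 replicates II and III, 5.61 and 1.75 RPKM in both of day 4, and 3.75 and 6.28 RPKM in both of day 7. All 9 neutrophil markers fell at day 7 in both comparisons. The 8 B lineage markers, cells that also carry Cd40, Cd83, Cd86 and Ccr7, summed to 90.8 and 80.5 RPKM in the day 0 libraries, 69.5 and 48.9 RPKM in those of day 4, and 10.3 and 13.1 RPKM in those of day 7, with Ms4a1, Pax5, Vpreb3 and Fcmr at 0 in both day 7 libraries. The 10 T and NK cell markers summed to 2.13 and 1.73 RPKM at day 7, with Cd3e, Cd3g, Nkg7 and Ncr1 at 0 in both libraries. Plasmacytoid DC markers had 2 of 9 higher and 0 lower at day 7 against day 4, and 2 higher and 1 lower against day 0. Stromal and endothelial markers had 6 of 8 lower and 0 higher at day 7 against day 0, and all 7 erythroid markers were lower there. Of all genes tested, 29.3% were called lower and 11.3% higher in that comparison. Some stromal and endothelial markers had few reads at day 0, such as Cdh5 (4 and 3) and Kdr (5 and 6), while Col1a1 had 38 and 18. The part of macrophage RNA in the rise of Cd274 and Icam1 was not tested.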

How the data were processed

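The authors deposited a table of RPKM over exons with Entrez IDs, symbols and gene lengths, per the file headers. TopHat2 2.0.13, SAMtools 1.1 and genome build mm9 are named, with no step given for each, per the submitters' processing notes. Which program counted reads, on which annotation and whether by strand is not given in the sources used here. Per the labels' protocols, total RNA (Qiagen RNeasy) went into SMARTer and NexteraXT libraries. The labels name no batch. Each RPKM came within 5.41e-05 of a whole number of reads, so the reads and totals of each library were recovered from RPKM and length. Of all entries, 92 lacked a symbol.

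Values were used as log2(RPKM + 1), which can understate changes of low genes. A library without reads lowers the mean of its day on this scale. A difference from such a day can then exceed the pooled read ratio or differ from it in direction. For Ccl22 at day 7 against day 0 the difference was 0.24, beside a pooled ratio of 0.585. Genes that reached 1 RPKM in at least 2 of 6 libraries, 19279 in all, were fitted with limma 3.58.1 in R 4.3.3 (3 day means, eBayes with trend, 3 residual and a median of 5.22 prior degrees of freedom). P-values were two-sided and adjusted by Benjamini-Hochberg over these genes in each of 3 comparisons, and adjusted p under 0.05 made a call. An exact permutation of 2 against 2 libraries cannot go below p = 0.333. Intervals of reads and of read ratios are exact (Clopper-Pearson, 95%), and the floor is 3 reads. The package data.table (version 1.17.8) read the files, and Python 3.11.15 and matplotlib 3.10.9 drew the plots.

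The members, the 13 lists (163 of 170 entries in the table), the tests and the alternatives were chosen with earlier results of these data known. Named from each list were up to 3 genes with the highest mean RPKM and, per comparison, up to 2 called genes with the smallest adjusted p. Marker genes in the cell type check, and Icosl, Tnfsf14, Ctla4 and Pdcd1, were named outside this rule. Alternatives were other pseudocounts, filters, scalings, a fit on the recovered reads (voom), thinning, fewer libraries and library weights. Coordinates are given for RefSeq windows on GRCm38.p6 only, since the annotation used here is not mm9.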

Additional observations from a re-analysis of the deposited data

How the results depend on the processing

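No paired analysis was possible because any 2 days share at most 1 replicate number (II for days 4 and 0, III for days 7 and 0, none for days 7 and 4). Of 438 differences of members under 17 alternatives, 414 had the same call, 12 were no longer called and 12 were newly called, and 0 called differences changed direction. Signs of members that were not called, such as Ccr7 and Ccl22, turned under some settings. Fewer than 9 members had a value under 3 settings, 5 with the filter of 5 RPKM, 7 when thinned and 8 with the receptor gene median subtracted. Of 663 counts of called list genes, 457 stayed within 1.5 times.

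The 1 member called at day 7 against day 4 became 2 with a pseudocount of 5, median ratio scaling, weights per library or the receptor gene median subtracted (the last chosen after seeing the data), 3 with voom on recovered reads or with only the libraries of these days, and 0 when thinned to 157797 reads. Leaving out 1 library gave 0 to 3, with 0 without day 4 replicate I or II or day 7 replicate III or IV. The 2 called at day 7 against day 0 became 1 when thinned and 1 with only the libraries of these days, and 0 to 2 without 1 library (0 without day 7 replicate IV). The 0 called at day 4 against day 0 became 0 to 1 without 1 library, the 1 being Cd274 without day 0 replicate II, where limma gave adjusted p = 0.00868.

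Over all genes, the 1075 calls at day 4 against day 0 became 535 with a pseudocount of 0.1, 309 with voom, 1865 when thinned, 529 with only these days, 0 with weights (2757 at unadjusted p under 0.05 in limma), 1763 with the receptor median subtracted, and 0 to 2397 without 1 library. The 2428 at day 7 against day 4 became 3996 with a pseudocount of 0.1, 978 with quantile normalization, 12788 with voom, 909 when thinned, 3921 with only these days, and 0 to 4120 without 1 library (0 without day 4 replicate I or II, with 4062 and 7160 at unadjusted p under 0.05). The 7832 at day 7 against day 0 became 4957 with the filter of 5 RPKM, 2141 with quantile normalization, 3911 when thinned, 4097 with the receptor median subtracted, and 1173 to 9200 without 1 library. There the split of 2183 higher and 5649 lower became 1211 and 930 with quantile normalization, and 2373 and 1724 with the receptor median subtracted. The median of all genes at day 7 against day 0 was -1.14, and -0.01 and 0 under these. A day left with 1 library is assumed to vary like the others. The causes of these shifts were not tested. Depth at day 0, where a member had at most 8 reads in a library, limits each comparison with it.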
